A study of Mus musculus with 145 samples.

Results

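*Dazl*, *Tex101*, *Nxf2*, *Taf7l*, *Tuba3b*, *Stk31* and *Ddx25* are 7 germ cell genes of the 24615 genes in a single-cell count table of mouse spermatogonial stem cells (SSCs) on their way to pluripotency. They were taken as a named list because earlier values from these cells placed them high in SSCs and low in reprogrammed cells, so that contrast is described here and not tested. All 7 were found in each of the 3 count tables used, and all 7 passed the filter on low counts, as did 19129 genes in all.

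SSCs were derived from pups of a cross of C57BL/6 females with DBA/2 males (DBA in the labels), carried EGFP under the *Oct4* promoter, and grew on a feeder layer of mouse embryonic fibroblasts. Modified STRT-seq, which counts the unique molecular identifiers (UMIs) of each transcript end, was applied to 4464 cells in 49 libraries: 46 libraries of SSC reprogramming without added compounds, sampled between day 0 and day 27, and 1 library each of germline-derived pluripotent stem cells (gPSCs) at passage 1, gPSCs at passage 15, and embryonic stem cells (ESCs). Both gPSC libraries came from the line gPSC-1, and gPSCs and ESCs were kept in the 2iL medium. scTrio-seq2, which reads RNA and DNA methylation from the same cell, gave RNA counts of 724 cells in 8 samples treated with the 5C mixture of chemicals (vitamin C, TUDCA, EGCG, SGC707 and daphnetin) and of 365 cells in 5 samples given the solvent DMSO. The scTrio-seq2 cells came from SSCs of the same cross, and the ESCs were of this cross too. Cells were picked by hand from SSC-like and PSC-like colonies, so the share of a class among them is not its share in the culture.

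The classes are those of the deposited annotation: 2265 cells stayed SSCs, 333, 47, 261 and 33 cells were placed in the successive reprogramming stages RPG1, RPG2, RPG3 and RPG4, and the failed branches were named Fibroblast, Early-pluripotent, Meiotic and Neural. Library totals ranged from 15975410 to 34609591 UMIs in SSC reprogramming, from 10833720 to 14807169 in gPSC and ESC libraries, and from 3888311 to 10723044 in scTrio-seq2. UMIs were summed over the cells of a class in a library wherever a library held at least 5 of them, which gave 36 sums of SSC, 7 of RPG1, 3 of RPG2, 8 of RPG3 and 2 of RPG4. The annotation names 2 batches of SSC reprogramming, B1 and B2, and all RPG2 sums came from B2 and both RPG4 sums from B1, so these stages and the batches cannot be told apart. Levels are CPM, a gene's UMIs as a share of all UMIs of the sum on the usual fixed scale, adjusted with TMM factors for differences in composition. The pluripotency markers (*Pou5f1*, *Nanog*, *Sox2*, *L1td1*, *Utf1* and *Zfp42*) together reached 48.0 to 283 CPM in SSC sums and 187 to 437 CPM in RPG1 sums. RPG2 sums held 1682 to 2444 CPM of them, RPG3 sums 1873 to 2757 CPM and RPG4 sums 908 to 1173 CPM. The 6 SSC markers summed to 146 to 588 CPM in SSC and to 233 to 401 in RPG3, so this list as a sum did not separate SSC from RPG3. In RPG1 the sum was 447 to 661 CPM, above RPG2 (269 to 271), RPG3 and RPG4 (188 to 254). *Gfra1* and *Lhx1* were at 0 in gPSCs and ESCs. Collagen and other feeder markers summed to 13.5 to 144 CPM in SSC and 11.02 to 43.6 in RPG3.

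Germ cells use a set of genes that other cells keep silent. Many have promoters rich in CpG that become methylated in the embryo, and in ESCs a Polycomb complex with the DNA-binding partners MGA, MAX and E2F6 helps to keep such genes off. The motifs tied to these partners are the E-box CACGTG and the E2F motif TCCCGC. The 7 genes serve different steps of germ cell life. *Dazl* encodes an RNA-binding protein that controls translation and is needed to form and keep germ cells, *Stk31* a kinase-like protein with a Tudor domain, and *Ddx25* an RNA helicase needed late in sperm formation. *Nxf2* encodes a germ cell relative of the mRNA export factor NXF1, *Taf7l* a relative of the TAF7 subunit of the general transcription factor TFIID, *Tuba3b* a testis alpha-tubulin, and *Tex101* a surface glycoprotein of germ cells needed for male fertility.

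In GENCODE annotation of mm10, *Dazl* lies at chr17:50279395-50293636, *Tex101* at chr7:24668007-24676675, *Nxf2* at chrX:134944526-134964754, *Taf7l* at chrX:134460118-134476490 and *Ddx25* at chr9:35536647-35558528, all on the minus strand. *Stk31* at chr6:49395604-49469501 and *Tuba3b* at chr6:145615757-145621479 lie on the plus strand. Promoters were read from RefSeq (GRCm38.p6) as 300-base windows reaching 250 bases before and 50 bases after the start site, and all 7 genes had at least 1 window. The 250 bases before the start are printed for the genes whose window held CACGTG or TCCCGC on either strand, so that the position of each motif can be seen. Capitals mark the motif, 5′ to 3′ on the gene's strand. The stretches are chrX:134964755-134965004 (minus strand) for *Nxf2*, chrX:134476491-134476740 (minus) for *Taf7l*, chr6:49395354-49395603 (plus) for *Stk31*, chr9:35558471-35558720 (minus) for *Ddx25* and chr6:145615713-145615962 (plus) for *Tuba3b*.
Nxf2: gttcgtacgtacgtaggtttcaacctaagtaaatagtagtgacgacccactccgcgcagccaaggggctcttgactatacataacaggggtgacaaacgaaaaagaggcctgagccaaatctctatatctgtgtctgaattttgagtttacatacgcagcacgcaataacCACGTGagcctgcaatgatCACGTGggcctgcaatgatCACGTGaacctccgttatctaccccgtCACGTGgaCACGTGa
Taf7l: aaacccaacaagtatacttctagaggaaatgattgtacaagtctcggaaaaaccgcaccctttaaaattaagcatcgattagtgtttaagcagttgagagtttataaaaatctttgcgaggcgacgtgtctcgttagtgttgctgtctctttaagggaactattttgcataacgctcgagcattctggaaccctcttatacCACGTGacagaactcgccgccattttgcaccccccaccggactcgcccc
Stk31: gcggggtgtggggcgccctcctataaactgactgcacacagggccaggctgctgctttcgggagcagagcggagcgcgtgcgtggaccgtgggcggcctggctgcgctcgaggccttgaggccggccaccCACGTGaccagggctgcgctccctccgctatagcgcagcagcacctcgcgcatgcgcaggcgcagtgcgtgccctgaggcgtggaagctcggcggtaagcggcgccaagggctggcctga
Ddx25: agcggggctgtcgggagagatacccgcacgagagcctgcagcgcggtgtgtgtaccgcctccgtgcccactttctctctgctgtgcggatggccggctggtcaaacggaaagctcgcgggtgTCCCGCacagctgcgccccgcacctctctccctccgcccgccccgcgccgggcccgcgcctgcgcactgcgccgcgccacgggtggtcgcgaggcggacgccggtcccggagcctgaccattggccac
Tuba3b: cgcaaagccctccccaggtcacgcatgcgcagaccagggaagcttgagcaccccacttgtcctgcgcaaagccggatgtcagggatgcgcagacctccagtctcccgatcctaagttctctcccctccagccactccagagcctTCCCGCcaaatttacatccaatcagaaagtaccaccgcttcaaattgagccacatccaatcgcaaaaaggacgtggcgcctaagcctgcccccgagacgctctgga

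*Nxf2* held 5 copies of CACGTG between 80 and 7 bases before its start, *Taf7l* held 1 copy 49 bases before and *Stk31* 1 copy 120 bases before. *Nxf2* and *Stk31* each had a second window at another RefSeq start. For *Nxf2* this held TCCCGC 90 bases before the start, without CACGTG. For *Stk31* it held the same CACGTG as the first window, which lies 55 bases before the second start. *Ddx25* and *Tuba3b* each held TCCCGC, 128 and 106 bases before the start, and *Ddx25* had a CACGTG 37 bases after it, outside the printed stretch. Neither motif was found in the windows of *Dazl* and *Tex101*. The RefSeq starts of *Tuba3b* (position 145615963), *Tex101* (24672050), *Ddx25* (35558470) and *Dazl* (50293620) lie inside the GENCODE genes given above, so for *Tuba3b* most of the printed stretch, its motif included, is inside the GENCODE gene, and the *Tex101* window does not cover that gene's GENCODE start. Of 32851 windows in the same set, 7.15% held CACGTG, 20.0% held TCCCGC and 25.1% held either, while 5 windows (0.0152%) held 5 or more copies of CACGTG. The windows of the 7 genes held 16 to 41 CpGs against a median of 7 over all windows. These matches describe the letters of the windows and were set against no binding data.

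In STRT-seq all 7 genes were high in SSC and RPG1 sums and low in RPG2, RPG3 and RPG4 sums. *Dazl* was measured at 809 ± 181 CPM in SSC (SD, n = 36; lowest 535, median 793, highest 1219) and at 769 ± 91.8 in RPG1 (n = 7). It stood at 168, 79.6 and 136 CPM in the RPG2 sums of day 12 replicate 2, day 14 replicate 5 and day 14 replicate 6, at 117 ± 42.0 in RPG3 (n = 8; 69.7, 103.6 and 168), and at 80.8 and 51.2 in the RPG4 sums of day 20 replicates 1 and 2. RPG1 values of *Dazl* lay inside the SSC range, and each RPG2, RPG3 and RPG4 value lay below every SSC value. The RPG3 mean of *Dazl* was 14.4% of its SSC mean. In scTrio-seq2, *Dazl* was at 777, 151 and 356 CPM in the RPG2 sums of 5C replicates 1, 7 and 8. It was at 615 CPM in the only 5C RPG4 sum (5 cells), against 1010 to 1484 in SSC with 5C. With DMSO it was at 15.4 CPM in the only RPG2 sum and at 14.7 and 21.1 in the RPG4 sums.

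The transcription and export genes showed the same step. *Taf7l* was at 498 ± 77.4 CPM in SSC (n = 36; 377, 471 and 635), 429 ± 55.5 in RPG1 (n = 7) and 54.2 ± 38.7 in RPG3 (n = 8; 22.04, 37.8 and 123), and at 34.7, 28.2 and 41.5 in the RPG2 sums and 30.6 and 16.7 in the RPG4 sums. *Nxf2* was at 461 ± 63.2 CPM in SSC (n = 36; 374, 457 and 672), 405 ± 20.0 in RPG1 (n = 7) and 40.6 ± 24.7 in RPG3 (n = 8; 18.7, 30.3 and 83.5), and at 35.8, 25.5 and 31.3 in RPG2 and 33.8 and 16.9 in RPG4. For both genes RPG1 overlapped with SSC, and RPG2, RPG3 and RPG4 overlapped with each other but not with SSC.

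*Tex101*, the surface protein gene, was at 487 ± 66.0 CPM in SSC (n = 36; 396, 476 and 618), 460.0 ± 35.4 in RPG1 (n = 7) and 61.0 ± 40.5 in RPG3 (n = 8; 26.99, 41.4 and 128). Its RPG2 sums were at 44.4, 37.9 and 41.5 CPM, and its RPG4 sums at 24.3 and 22.4 CPM lay below each of its RPG2 and RPG3 sums. The tubulin gene *Tuba3b* was at 434 ± 60.0 CPM in SSC (n = 36; 302, 432 and 569), 402 ± 52.6 in RPG1 (n = 7) and 65.3 ± 55.6 in RPG3 (n = 8; 30.4, 36.8 and 183). *Tuba3b* was within a narrow range in RPG2, at 43.3, 41.4 and 43.0 CPM, and was at 45.4 and 22.4 CPM in RPG4, so its RPG2 to RPG4 sums overlapped. *Tuba3b* is nearly identical in sequence to *Tuba3a*, and how the counting divided shared reads is not known, so its levels are less certain than those of the other genes.

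*Stk31* was at 305 ± 58.7 CPM in SSC (n = 36; 196, 293 and 444), 283 ± 24.7 in RPG1 (n = 7) and 36.6 ± 11.04 in RPG3 (n = 8; 24.0, 36.7 and 58.2). Its RPG2 sums were at 56.3, 23.01 and 43.0 CPM, and its RPG4 sums, at 13.5 and 10.54 CPM, lay below all of these. *Ddx25* was at 317 ± 51.8 CPM in SSC (n = 36; 227, 302 and 468), 240 ± 49.6 in RPG1 (n = 7) and 39.8 ± 23.9 in RPG3 (n = 8; 18.7, 34.3 and 91.4). It differed from the other genes in RPG4: its 62.1 and 57.7 CPM there lay inside its RPG2 range (54.4, 76.6 and 29.4 CPM) and its RPG3 range, and their mean was 18.9% of SSC, against 3.95% for *Stk31*, 4.75% for *Taf7l* and at most 8.15% for the rest.

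Counted over genes, 0 of 7 had every RPG1 sum below every SSC sum, where 0.0105% of the genes that passed the filter did, and 7 of 7 had every RPG2 sum below SSC (background 3.45%), every RPG3 sum below SSC (2.12%) and every RPG4 sum below SSC (5.75%). The genes were chosen on this contrast, so nothing is read from these shares. The 7 genes kept a median of 92.6% of their SSC level in RPG1 and, over the later stages in order, 9.80%, 12.5% and 5.49%. The medians over all genes for the same 4 stages were 97.5%, 73.2%, 86.5% and 72.0%.

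**Figure D1:**
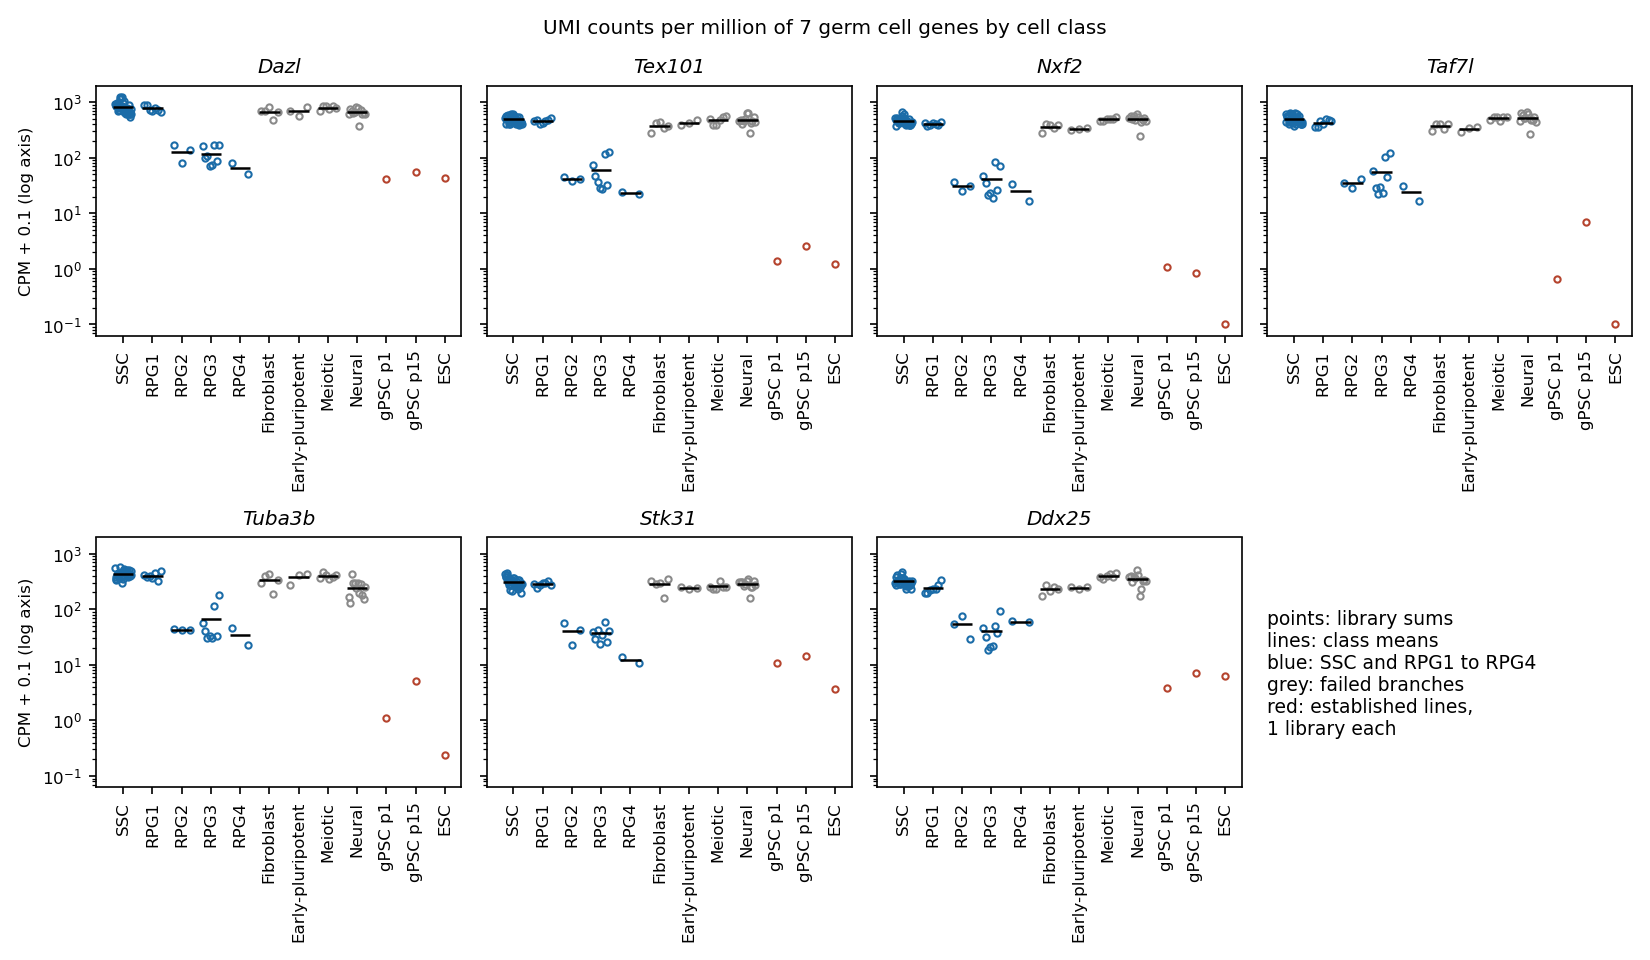
Levels of the 7 genes by class. Each panel is a gene, the vertical axis is CPM + 0.1 on a log scale, points are library sums (SSC 36, RPG1 7, RPG2 3, RPG3 8, RPG4 2), black lines are class means, and red points are gPSC and ESC libraries as CPM without TMM factors; RPG2 to RPG4 sit below every SSC point in each panel, and the established lines sit below every RPG3 point for all 7 genes, with *Dazl* at 41.9 to 55.7 CPM.

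In each failed branch the mean of each gene was above its RPG2, RPG3 and RPG4 means. *Dazl* averaged 664 CPM in Fibroblast, 693 in Early-pluripotent, 793 in Meiotic and 662 in Neural cells, all inside its SSC range. *Tuba3b* had its lowest failed-branch mean, 243 CPM, in Neural cells, against 434 in SSC, and *Ddx25* its highest, 396 CPM, in Meiotic cells, both with ranges that overlapped SSC. *Nxf2* and *Taf7l* averaged 329 and 328 CPM in Early-pluripotent cells, with sums of 320 to 344 and 296 to 352 CPM. These lay below every SSC sum (lowest 374 and 377 CPM), while the other genes overlapped with SSC there. In Meiotic cells *Nxf2* and *Taf7l* averaged 494 and 516 CPM, inside the SSC range. All 3 Early-pluripotent sums came from batch B2 and all 5 Fibroblast sums from B1, so these branches and the batches cannot be told apart. Early-pluripotent cells kept all 7 genes at several times their RPG3 means.

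Most other germ cell genes showed a similar step, and most paralogues of the 7 did not. Of 30 other germ cell genes, which include the piRNA factors *Ddx4*, *Mov10l1*, *Asz1* and *Piwil2*, 0, 18, 20 and 27 had all their RPG1, RPG2, RPG3 and RPG4 sums below SSC, and their median level was 80.8%, 12.5%, 11.8% and 4.73% of SSC. Some stayed up in RPG3: *Mageb16* was at 113% of SSC, *Tdrd12* at 76.2%, *Hormad1* at 64.1% and *Tex19.1* at 42.0%. Of 13 paralogues of the 7 genes, 0, 2, 1 and 5 had all their sums below SSC in RPG1 to RPG4. *Taf7*, which encodes the ubiquitous TFIID subunit, averaged 614 CPM in SSC and 511 in RPG3, and *Nxf1*, the general mRNA exporter, 188 and 258. The general tubulins *Tuba1b* (284 and 864 CPM) and *Tuba1c* (142 and 366) had all their RPG3 sums above SSC, and the paralogue below SSC in RPG3 was *Tuba3a* (664 and 205).

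Established lines, at 1 library each, carried less of all 7 transcripts than any STRT-seq RPG3 sum when both had TMM factors. *Dazl* was then at 48.6, 57.6 and 47.5 CPM in passage 1 gPSCs, passage 15 gPSCs and ESCs, against at least 69.7 in RPG3. This did not hold for scTrio-seq2 RPG3 sums with DMSO. Without TMM factors these had *Dazl* at 39.3 and 36.1 CPM and *Stk31* at 6.56 and 7.33 in replicates 1 and 2. The line levels below are CPM without TMM factors, with intervals that cover counting error only. *Dazl* was at 41.9 CPM in gPSCs at passage 1 (95% Poisson interval 38.6 to 45.4), 55.7 at passage 15 (51.3 to 60.3) and 43.2 in ESCs (39.9 to 46.6). *Dazl* was thus detected in all 3 libraries, but at passage 1 the median cell held 0 CPM of it and the highest cell 1263. *Tex101* was at 1.28, 2.49 and 1.15 CPM, *Stk31* at 10.8, 14.3 and 3.65 and *Ddx25* at 3.70, 6.92 and 6.08 in passage 1 gPSCs, passage 15 gPSCs and ESCs. *Taf7l* was at 0.570 and 6.83 CPM and *Tuba3b* at 0.997 and 5.08 CPM in gPSCs at passages 1 and 15, and *Tuba3b* had 2 UMIs in ESCs. *Nxf2* was at 0.997 and 0.738 CPM in gPSCs. No UMI of *Nxf2* or *Taf7l* was counted among 14807169 in ESCs, which allows a level of up to 0.203 CPM when a count of 0 is read as up to 3 UMIs.

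The low level in RPG2 to RPG4 was spread over the cells. The summed CPM of the 7 genes had a median of 3469 over SSC cells, 3124 over RPG1, 289 over RPG2, 228 over RPG3 and 275 over RPG4 cells, and of 23.2, 47.3 and 29.9 over cells of passage 1 gPSCs, passage 15 gPSCs and ESCs. In RPG3 the 10th and 90th percentiles were 130 and 506 CPM and the highest cell reached 2131. No cell of RPG2, RPG3 or RPG4 came above 2580 CPM, the 5th percentile of SSC cells, whereas 280 of 333 RPG1 cells did. All 7 genes had at least 1 UMI in 42 of 47 RPG2 cells, 206 of 261 RPG3 cells (78.9%) and 30 of 33 RPG4 cells, against 0 of 48, 2 of 32 and 0 of 45 cells in the 2 gPSC libraries and ESCs. Median depth was 285699 UMIs per cell in STRT-seq RPG3 and 321636 in ESCs. In scTrio-seq2, all 7 were found in 1 of 74 and 0 of 66 RPG3 cells of DMSO replicates 1 and 2. Median depth there was lower, at 71064 and 77114 UMIs. With 5C they were found in 19 of 54 cells of replicate 5 and 23 of 32 of replicate 1. SSC, RPG1 and failed-branch cells gave 28.2% to 84.3% of UMIs in STRT-seq libraries with RPG3 sums and 0% in gPSC and ESC libraries. The part of this make-up in the result was not tested.

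**Figure D2:**
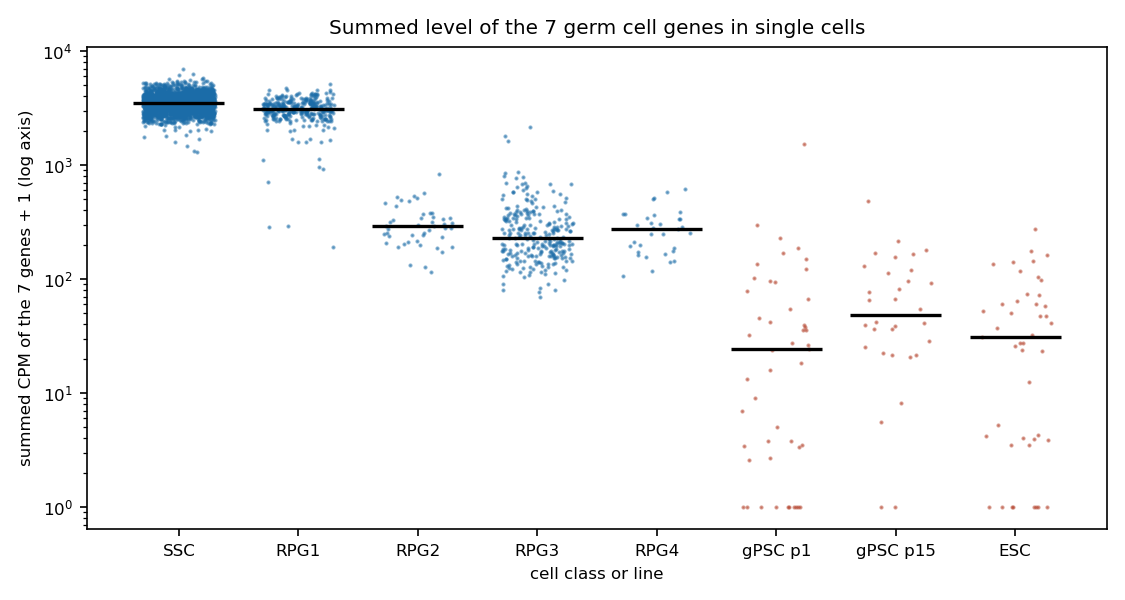
Summed level of the 7 genes in single cells. Each point is a cell, the vertical axis is summed CPM + 1 on a log scale, and black lines are medians; SSC and RPG1 cells sit near 3469 and 3124, RPG2 to RPG4 cells form a band around 228 to 289 with no cell in the SSC band, and gPSC and ESC cells reach down to 0.

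Gene by gene, an STRT-seq RPG3 cell had a UMI of *Dazl* in 99.2% of cases, *Tuba3b* in 97.3%, *Tex101* and *Taf7l* each in 95.4%, *Nxf2* in 95.02%, *Ddx25* in 94.3% and *Stk31* in 90.04%. After thinning each cell to 50000 UMIs the shares were 95.7%, 74.8%, 77.2%, 70.9%, 65.7%, 58.7% and 61.8% in the same order. *Dazl* was found in 68.9% of ESCs (44.2% after thinning) and *Nxf2* in 0 of 45, which allows a share of cells with a UMI of up to 7.87% (exact binomial) and sets no limit on cells that express it below detection. Between these ends stood *Stk31* and *Ddx25*, with a UMI in 26.7% and 22.2% of ESCs. In gPSCs a UMI of *Dazl* was found in 47.9% of cells at passage 1 and 90.6% at passage 15.

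Comparing RPG3 with RPG1 cells of the same library gave the level left without differences between libraries, in the 7 libraries that held both. Over these libraries the median level left was 11.8% for *Dazl*, 7.49% for *Tex101*, 6.76% for *Nxf2*, 8.25% for *Taf7l*, 9.81% for *Tuba3b*, 11.6% for *Stk31* and 13.7% for *Ddx25*. The level left varied from library to library. The 7 genes were at 4.52% to 17.6% of RPG1 in 5 libraries (day 18 replicates 3 and 5, day 20 replicates 1 and 2, day 23 replicate 1), at 20.1% to 25.7% in day 20 replicate 8 and at 15% to 38.1% in day 23 replicate 2. The other germ cell genes moved with them: their median was 6.44% to 12.4% of RPG1 in those 5 libraries, 20.4% in day 20 replicate 8 and 26.4% in day 23 replicate 2.

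**Figure D3:**
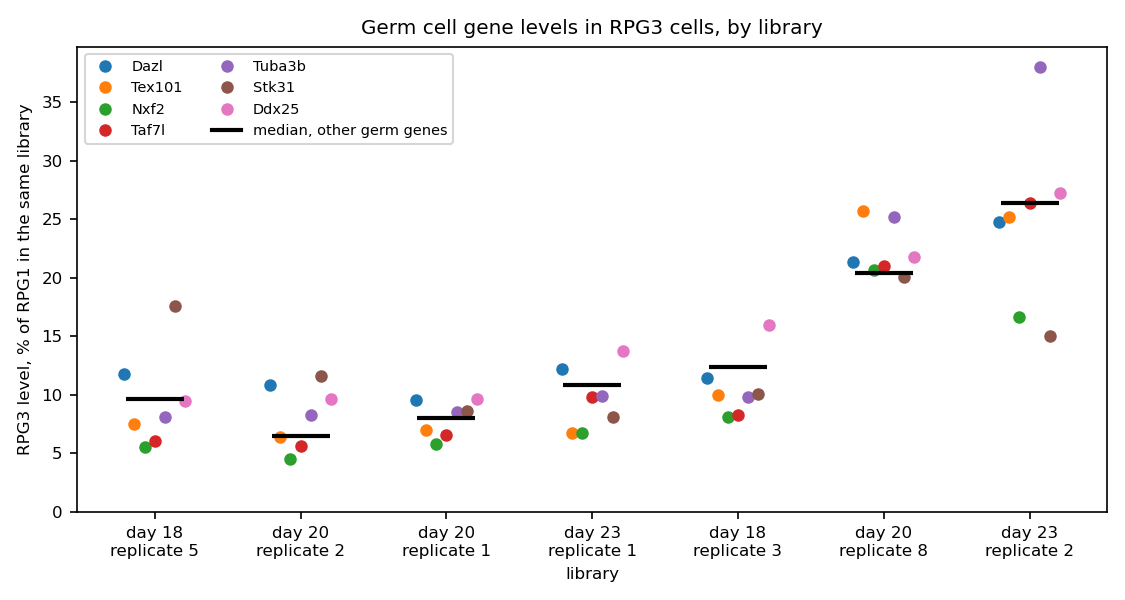
RPG3 levels as a percentage of RPG1 levels in the same library. Coloured points are the 7 genes, black bars are medians of the other germ cell genes, and the 7 libraries run along the horizontal axis; day 20 replicate 8 and day 23 replicate 2 have both sets between about 15% and 38.1%, and the other 5 have bars from 6.44% to 12.4%.

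The difference between libraries was seen in typical cells and not only in a few. The median RPG3 cell of day 20 replicate 8, day 23 replicate 2 and day 12 replicate 2 had a summed level of 470.5, 556 and 401 CPM, and the medians of the other 5 libraries were 168 to 246 CPM. The lowest RPG3 cell of day 23 replicate 2, at 336 CPM, lay above the 90th percentile of day 20 replicates 1 and 2 (306 and 304). The make-up of the libraries differed too. SSC, RPG1 and failed-branch cells gave 84.3%, 63.8% and 81.7% of the UMIs of the 3 libraries with high values and 28.2% to 57.6% in the other 5. Day 20 replicate 8 and day 23 replicate 2 were in batch B1 and day 12 replicate 2 in batch B2. The part of this make-up in the result was not tested. Within RPG4, *Ddx25* was at 28.6% and 25.3% of RPG1 in day 20 replicates 1 and 2, and the other 6 genes were at 3.57% to 11.6%.

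The scTrio-seq2 samples allowed a comparison by labelled treatment, 5C against DMSO within a predicted class, although the genes were named with earlier results of these samples known. 5C was sampled on days 12 to 16 and DMSO on day 20 or 24, apart from 8 day 0 cells in DMSO replicate 5, so treatment and day cannot be told apart. In RPG3 cells (5C replicates 1, 3, 5, 6, 7 and 8 and DMSO replicates 1 and 2), all 7 genes had higher means with 5C, and 3 of 7 passed the test (edgeR quasi-likelihood, Benjamini-Hochberg adjusted p below 0.01 and a natural-log fold change of at least 1). Over 11390 genes tested 1.23% were called higher. *Dazl* was at 97.5 to 310.2 CPM (median 161) with 5C and at 59.4 and 53.3 with DMSO, a log2 fold change of 1.72 ± 0.36 (SE; edgeR adjusted p = 0.0044). *Tuba3b* was at 62.5 to 127 CPM (median 101) with 5C and at 10.4 and 6.77 with DMSO, a log2 fold change of 3.49 ± 0.40 (edgeR adjusted p = 4.94e-05). *Stk31* was at 22.8 to 52.9 CPM (median 42.2) against 9.89 and 10.8, a log2 fold change of 1.96 ± 0.47 (edgeR adjusted p = 0.0092). In each of these genes all 6 samples with 5C lay above both DMSO samples, a separation seen in 6 of the 7 genes and in 13.4% of the genes tested.

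*Tex101*, *Taf7l* and *Nxf2* also had all 6 values above both DMSO values but did not pass, with log2 fold changes of 1.99 ± 0.53, 2.28 ± 0.65 and 1.53 ± 0.60 (edgeR adjusted p = 0.019, 0.025 and 0.10). For *Taf7l* the DMSO samples differed widely, at 21.2 and 1.89 CPM, against 37.4 to 78.8 with 5C. *Ddx25* overlapped, at 15.8 to 29.7 CPM with 5C and 18.4 and 7.85 with DMSO (log2 fold change 0.79 ± 0.53, edgeR adjusted p = 0.35). Leaving out a DMSO sample leaves 1 in that arm, which is then assumed to vary like the samples with 5C. Without DMSO replicate 2 the count was 1 (*Tuba3b*), and without DMSO replicate 1 it was 2 (*Tuba3b* and *Taf7l*), with edgeR adjusted p = 0.097 and 0.062 for *Dazl* and 0.13 in both cases for *Stk31*. Over the fits with any 1 sample left out the log2 fold change was 1.49 to 1.86 for *Dazl* and 1.86 to 2.1 for *Stk31*, but 1.55 to 2.61 for *Tex101*, 1.40 to 4.84 for *Taf7l*, 0.89 to 2.68 for *Nxf2* and 0.31 to 1.52 for *Ddx25*. Without 5C replicate 1, 6, 7 or 8, with at least 10 cells per sum, or with no filter beyond 1 count, *Dazl* and *Tuba3b* were called and *Stk31* was not. Over 13 alternatives *Tuba3b* was called in 13, *Dazl* in 10 and *Stk31* in 4, where the adjusted p of *Stk31* ran from 0.00015 to 0.13.

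Other germ cell genes were higher as well: of 27 tested, 23 had higher fitted levels with 5C and 3 were called, namely *Nanos3* (log2 fold change 5.51 ± 0.73), an RNA-binding factor of early germ cells, *Rhox13* (3.54 ± 0.58), an X-linked homeobox gene, and *Piwil2* (2.44 ± 0.47), a piRNA-binding protein. *Nanos3* rested on 8 UMIs in both DMSO samples together. The median log2 fold change was 1.96 for the 7 genes, 1.59 for the other germ cell genes, −0.23 for the paralogues (0 of 11 called) and 0.07 for all genes.

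**Figure D4:**
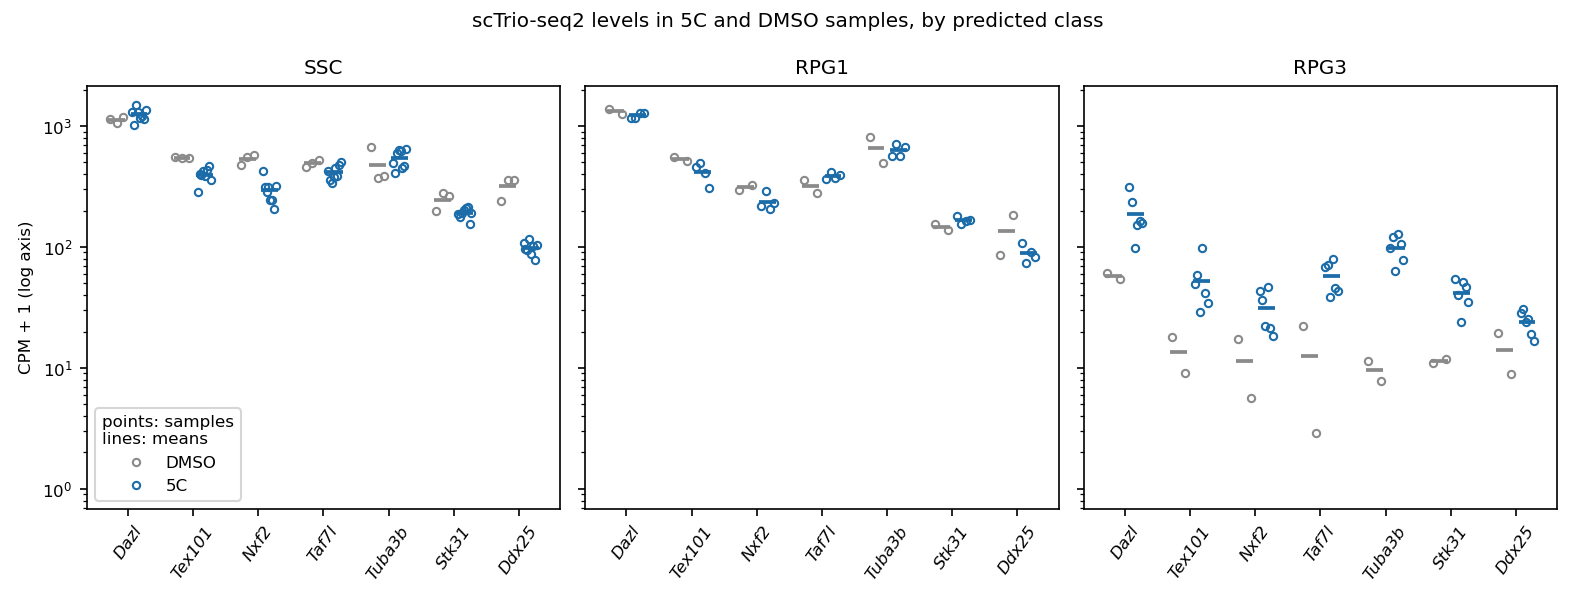
scTrio-seq2 levels of the 7 genes in 5C (blue) and DMSO (grey) samples. Each panel is a predicted class, the vertical axis is CPM + 1 on a log scale, points are samples and bars are means; in RPG3 all 5C points sit above the DMSO points except for *Ddx25*, and in SSC *Ddx25*, *Nxf2* and *Tex101* sit lower with 5C.

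Single cells showed the same order. The median RPG3 cell had a summed level of 247 to 528 CPM in the 6 samples with 5C and of 31.3 and 31.4 CPM in DMSO replicates 1 and 2. *Tuba3b* had a UMI in 87.5% to 100% of RPG3 cells with 5C, and in 17 of 74 (22.97%) and 11 of 66 (16.7%) with DMSO. The 5C sample of lowest depth, replicate 7 with a median of 65944 UMIs per cell, had *Tuba3b* in 93.8% of cells, while the DMSO samples had medians of 71064 and 77114 UMIs. Single RPG3 cells reached 2654 CPM in 5C replicate 1, 3174 CPM in 5C replicate 6 and 1935 CPM in DMSO replicate 1, and such cells raise the sums of their samples.

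Other values moved with this comparison. SSC, RPG1 and failed-branch cells gave 5.57% and 8.39% of the UMIs in the DMSO samples and 21.6% to 81.7% in the 5C samples. The 6 pluripotency markers summed to 2095 to 3086 CPM in RPG3 with 5C and to 3662 and 3773 CPM with DMSO, without overlap, and the 6 SSC markers to 243 to 385 CPM with 5C and 335 to 336 CPM with DMSO. With only the 3 samples with 5C in which such cells gave under 50% of UMIs (replicates 1, 5 and 7), the log2 fold changes were 1.75 for *Dazl* and 1.95 for *Stk31*, with edgeR adjusted p = 0.015 for each, and *Tuba3b* remained called. The part of make-up and of pluripotency level in the result was not tested.

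**Figure D5:**
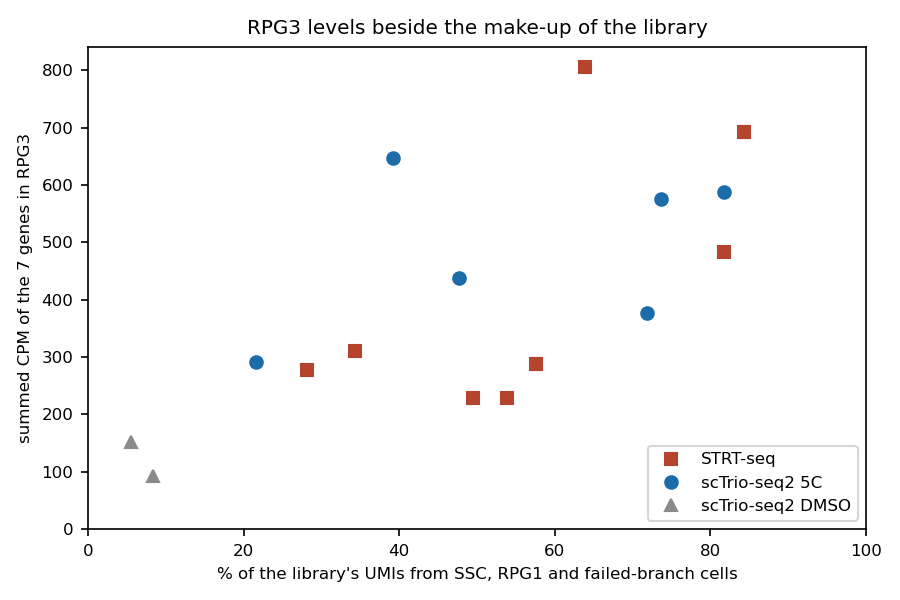
Summed level of the 7 genes in RPG3 cells (vertical axis, CPM) against the percentage of the library's UMIs from SSC, RPG1 and failed-branch cells (horizontal axis). Squares are 8 STRT-seq libraries, circles 6 samples with 5C and triangles 2 DMSO samples; the DMSO samples, at 152 and 93.4 CPM, have the lowest percentages, 5.57% and 8.39%, and the highest square, day 23 replicate 2, is at 805 CPM and 63.8%.

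In RPG1 cells, 4 samples with 5C against 2 with DMSO, 0 of 7 genes were called by edgeR or DESeq2, 0 had an unadjusted edgeR p below 0.05, and 0.973% of 9350 genes were called in either direction. *Dazl* was at 1172 to 1285 CPM with 5C and at 1266 and 1373 CPM with DMSO, so it overlapped. *Tex101* was at 307 to 493.3 CPM against 511 and 558, and *Nxf2* at 206 to 291 against 294 and 327, both without overlap and below DMSO, as were 14% of the genes tested (2 of 7 here). *Taf7l* went the other way, at 363 to 415 CPM against 279 and 360, without overlap and above DMSO, as were 19.5% of the genes tested (1 of 7 here).

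In SSC cells, 8 samples with 5C against 3 with DMSO, *Ddx25* fell: it was at 76.5 to 115 CPM (median 98.2) with 5C and at 239, 354 and 359 with DMSO, a log2 fold change of −1.72 ± 0.15 (SE; edgeR adjusted p = 2.73e-08). It was the 1 of 7 called, where 2.49% of 12260 genes were called lower. *Ddx25*, *Nxf2* and *Tex101* lay lower without overlap (3 of 7, where 9.57% of the genes tested did). *Nxf2* and *Tex101* were at 205 to 420 CPM against 472 to 574 and at 283 to 464 against 542 to 552. Their log2 fold changes, −0.87 ± 0.15 and −0.49 ± 0.13, had edgeR adjusted p = 0.00020 and 0.0068 but were smaller than the fold required. *Dazl* (0.13), *Tuba3b* (0.17), *Taf7l* (−0.27) and *Stk31* (−0.39) overlapped between the groups. Of 30 other germ cell genes 1 was called lower, *Sohlh1* (−1.55 ± 0.25), a transcription factor of spermatogonia. Beside this, SSC markers summed to 461 to 826 CPM with 5C and 201 to 373 with DMSO, and feeder markers to 5.17 to 24.7 CPM with 5C and 34.7 to 60.1 with DMSO, and the part of either in the result was not tested.

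Batches B1 and B2 gave 5 and 3 sums of RPG3. The B2 sums were of days 12 and 18 and the B1 sums of days 20 and 23, so batch and day cannot be told apart. None of the 7 genes differed by the test (edgeR adjusted p from 0.54 to 0.99), at a background of 0% of 13344 genes. Across all these genes edgeR called 0, with 1640 at an unadjusted p below 0.05, and DESeq2 called 26.

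Cells that stayed in the SSC class were followed over time in 36 libraries between day 0 and day 27, with batch as a covariate. *Stk31* fell by 0.0315 on the log2 scale per day (SE 0.0071, edgeR adjusted p = 0.0087), and 1 of 7 genes was called lower where 0.738% of 17882 genes were. Its mean level was 437 CPM on day 0 (1 library), 375 on day 10 (1 library), 410.1 on day 12 (n = 2), 328 ± 46.7 on day 14 (n = 6), 263 ± 45.8 on day 16 (n = 5), 330.5 ± 34.3 on day 18 (n = 5), 278 ± 23.9 on day 20 (n = 7), 280 ± 44.2 on day 23 (n = 6) and 259 ± 55.6 on day 27 (n = 3). The single day 10 library lay below both day 12 libraries, and the day 16 mean lay below the day 18 mean, so the means did not fall in order of day. The call was fragile: leaving out 1 library at a time ended it in 23 of 36 cases, with an adjusted p of at most 0.040, which was reached without the day 0 library. *Dazl* had a slope of −0.031 per day (edgeR adjusted p = 0.029), and the other 5 genes had slopes between −0.0205 and −0.0017. Of the other germ cell genes, *Usp26* (−0.047 per day) and *Rnf17* (−0.040) were called lower. Of the paralogues, *Tuba8* (0.566 per day) and *Tuba1a* (0.080) were called higher, where 0.129% of all genes tested were.

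Some genes followed the 7 closely across classes. Over the 56 sums of SSC and RPG1 to RPG4, and among 19129 genes, the mean log2(CPM + 1) of the 7 genes correlated best with *Slc25a31*, a germ cell ADP/ATP carrier (Pearson's r = 0.997), *Mov10l1*, a helicase that binds piRNA precursors (0.995), *Ddx4*, the germ cell helicase also called Vasa (0.993), and *Asz1*, a piRNA factor at mitochondria (0.989). These were followed by *Cox7b2* (0.986), *Sycp1* (0.985), *Xlr5a* (0.985), *Xlr5b* (0.984), *Zbtb16* (0.984) and *Ccdc172* (0.983). In 32 sums of scTrio-seq2 these 10 genes had r between 0.912 and 0.982. The sums come from libraries that contribute several classes each, and SSC and RPG1 sums lie far from RPG2 to RPG4 sums, so the values are descriptive. Between the 7 genes r was 0.906 to 0.992 over 21 pairs, but within the 36 SSC sums it ranged from −0.23 to 0.78 with a median of 0.40. The nearest genes to *Ddx25* were *Chd3os* (0.971) and *Tsc22d3* (0.969), whereas *Slc25a31* was among the 3 nearest for each of the other 6.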

How the data were processed

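Per the labels and the study's methods, the authors aligned reads to mm10 with STAR 2.7.2b, assigned them to genes with featureCounts 2.0.0, counted UMIs with UMI-tools, removed low-quality cells and deposited UMI counts of single cells with a cell annotation (cluster, batch). scTrio-seq2 classes are those predicted in the study, used as labels only. DNA methylation was not analysed here.

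Raw counts were summed per library and class (at least 5 cells). Levels are CPM with TMM factors, and CPM without factors for gPSC and ESC libraries. Tests used edgeR 4.0.16 (R 4.3.3; filterByExpr, glmQLFit, glmQLFTest) across all genes with Benjamini-Hochberg adjustment, called at an adjusted p below 0.01 and an absolute ln fold change of at least 1 (day: adjusted p only). DESeq2 1.42.0, other factors and filters, a minimum of 10 cells, batches apart and each library left out were alternatives. The fits were tested on simulated data first. No source says which replicates are separate cultures, so p-values measure only the spread between these samples. All 75 pairs of SSC sums from the same day differed beyond sampling noise, so none was treated as a repeat deposit of 1 library; this does not bear on whether they came from separate cultures. Libraries share cell barcodes by design, and 0 cells had identical counts.

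The 7 genes, the 30 other germ cell genes and the 13 paralogues were chosen with earlier results of these data known. Genes named are the 7, the 10 genes with the highest correlation with their mean, the 3 nearest to each, and of both lists the 3 largest called changes in each direction of a tested comparison, or any by role in descriptions. Per-cell shares have exact binomial and line levels exact Poisson 95% intervals, which cover counting error only. A count of 0 was read as up to 3 UMIs.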

Additional observations from a re-analysis of the deposited data

Results flagged for a closer look

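Of 84 sets of 4 to 10 sums examined, each of 1 gene in 1 group, 8 held a sum set apart from the others by Dixon's criterion. Chance gives about 1 in 20 for independent sets, but genes of the same library are not independent. *Ddx25* stood at 91.4 CPM in RPG3 of day 23 replicate 2, against 18.7 to 50.2 in the other 7 sums. *Stk31* stood at 326 CPM in Meiotic cells of day 16 replicate 4, against 226 to 255. In SSC cells of that same library *Dazl* (813 CPM, against 1146 to 1219) and *Taf7l* (481, against 589 to 629) were low for day 16. In SSC cells of day 23 replicate 4, *Dazl* (873 CPM, against 535 to 634), *Nxf2* (499.8, against 386 to 417) and *Taf7l* (562, against 403 to 449) were high for day 23. *Stk31* was high in SSC cells of day 20 replicate 7 (325 CPM, against 252 to 283).

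*Tex101* and *Nxf2* had all their values higher with 5C than with DMSO in RPG3, and all their values lower in SSC and in RPG1. The same separation was found in 13.4% (RPG3, higher), 9.57% (SSC, lower) and 14% (RPG1, lower) of the genes tested. The log2 fold changes of *Tex101* differed by 2.48 between RPG3 (1.99) and SSC (−0.49) and by 2.37 between RPG3 and RPG1 (−0.39). Those of *Nxf2* differed by 2.4 between RPG3 (1.53) and SSC (−0.87) and by 1.95 between RPG3 and RPG1 (−0.43). The difference itself was not tested.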

How the results depend on the processing

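The number of the 7 genes called with 5C in RPG3, 3, was 5 with DESeq2's Wald test, 2 with at least 10 cells or with no filter beyond 1 count (*Stk31* was lost), 1 with the 3 samples of 5C that had under 50% of UMIs from SSC, RPG1 and failed-branch cells (chosen after seeing the data) and 1 to 3 with a sample left out. Over all genes 275 were called by edgeR and 515 by DESeq2, but 41 and 42 without DMSO replicate 1 or 2. The number called over days, 1, was 0 with DESeq2's size factors, 2 with at least 10 cells, 0 without the day 0 library and 0 to 1 with a library left out, with 155 genes called by edgeR and 332 by DESeq2 in all. For the other counts (5C against DMSO in RPG1 and in SSC, batch, and RPG3 sums below SSC) the alternatives stayed at the reported value. The counts of RPG1, RPG2 and RPG4 sums below SSC were not rerun. Of 665 alternative values of the 35 single-gene fits, 608 kept direction and side of the threshold, 37 lost a call, 4 gained one and 16 changed sign. The latter were *Tuba3b* in RPG1 (0.32 with at least 10 cells, −0.37 to 0.34 with a sample left out), *Ddx25* in RPG1 (−1.05 to 0.058), *Dazl* between batches (−0.11 with at least 10 cells, −0.11 to 0.33), *Tex101* between batches (−0.65 to 0.035), *Stk31* between batches (−0.023 with at least 10 cells, −0.072 to 0.26) and *Tuba3b* per day (0.00077 with DESeq2's size factors, 0.00088 with DESeq2, 4.7e-05 with at least 10 cells, 0.011 without the day 0 library, −0.0042 to 0.011). The cause was not tested. In SSC, r between deviations of 5C and DMSO samples with the same number was −0.025 to 0.014. With different numbers it was −0.061 to 0.055. With only numbers 3, 4 and 5 shared, this cannot tell whether the numbers pair the samples. In SSC a replicate block over numbers 3, 4 and 5 left 1 gene called, *Ddx25*, with 607 genes called in all against 557 without the block. No paired analysis was possible because the groups share fewer than 2 numbers in RPG3 and RPG1. The 2 DMSO samples limit the RPG3 comparison, and 1 library each the established lines.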
